A study of Sus scrofa with 30 samples.

Results

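Early involution was compared with late gestation in the sow mammary gland, through 3 samples taken on day 2 after weaning (W2) and 3 taken on day 110 of gestation (LG). These are 6 of the 30 samples of a time course over 5 stages, with 6 samples a stage from multiparous half-sib sows of a Danish Landrace × Yorkshire cross. The labels name no treatment, and a group is defined by its stage alone. The tissue was parenchyma below the teat of the third gland on the left, taken as whole tissue, so each value is a mean over all cell types of the piece. In such bulk tissue, fewer cells of a type and less RNA per cell cannot be told apart. The gestating sows had come through earlier lactations, so LG is a gland in regrowth and not a first development. For the samples titled EL and MG, another label names the opposite stage. Their titles were followed, and they enter here only through the shared fit and as levels of other stages.

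In both stages, 3 of the 6 samples were nearly copies of one another and are not counted: samples 2, 5 and 6 of LG and 1, 4 and 5 of W2. Over transcripts of at least 10 units, pairs of these samples differed by a median of at most 1.82% in LG and 1.81% in W2. Pairs of the other samples differed by 19.5% to 22.5% in LG and by 21.0% to 25.5% in W2. The mean of the near-copies lay within a median of 0.688% (LG) and 0.692% (W2) of the mean of the other samples. The counted samples are therefore LG 1, 3 and 4 and W2 2, 3 and 6. The p-values and standard errors of the shared fit measure the spread within all 5 stages, pooled over 15 counted samples. They are not the spread of LG and W2 alone. Permutation p-values of summed levels and shares use the counted LG and W2 samples only.

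The alveoli of the mammary gland are built during gestation, when progesterone and prolactin drive the growth of the epithelium, and shortly before birth the luminal cells begin to make casein and whey protein mRNA. After weaning, milk stays in the alveoli, the secretory cells stop making milk and are removed by cell death, and fat and matrix take their place. In rodents this first phase is led by the cytokine LIF and the transcription factor STAT3, with CEBPD, SOCS3 and IGFBP5 among the genes that respond. LG and W2 thus stand on either side of lactation, and the comparison asks how a gland that is about to give milk differs from one that has just stopped.

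The table gives 1 value for each of 61773 transcripts. The authors name the unit FPKM, but every sample has nearly the same total, as with TPM, and values are given below simply as units. The number of reads behind a value is not in the table, so its precision rests on the replicates alone. The counted samples had 44724 to 44779 transcripts above 0 in LG and 44815 to 46114 in W2. Values were compared as log2(value + 0.5) with limma, the 5 stages in one fit, which understates changes of low genes. A feature is said to have risen or fallen only at an adjusted p below 0.05 with a log2 fold change of 2 or more in size. Isoforms were also summed to 26019 gene sums, of which 14958 carry a reference transcript and the rest are loci assembled by the authors.

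Few features passed. Of the 61773 transcripts, 20 were called (0.0324%), 10 higher and 10 lower in W2, and of the 26019 gene sums 8 (0.0307%), 3 higher and 5 lower. Only 2 of the 14958 reference genes (0.0134%) were among them, CSN1S1 and NCBP2, and both were lower in W2. Many more leaned one way without passing. At an unadjusted p below 0.05 there were 1046 reference genes higher in W2 (6.99%) and 153 lower (1.02%). The W2 samples all lay above the LG samples in 23.9% of reference genes and all below in 2.35%, and these shares are the background for the counts below. The gene lists were chosen with earlier results of these data known, so their counts are descriptions and not independent evidence. A log2 fold change above 0 was found in 75.4% of reference genes. The median reference gene had a log2 fold change of 0.23, and of 0.03 after median ratio scaling, in which each sample is divided by its typical ratio to the mean over well-expressed transcripts. A log2 fold change near 0.23 therefore marks a gene that stood like the rest of the table. The values of a sample share a fixed total, so all changes here are relative to that total. The counts moved with the fit: with W2 and LG fitted alone, limma called 2 transcripts and 12 gene sums, 1 and 2 of them shared with the calls above, and 14 of the 20 transcripts stayed called whichever 1 of the 6 samples was left out.

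The markers of the labelled tissue were present. The whey protein gene PAEP, which encodes beta-lactoglobulin, held 140236, 144915 and 125189.8 units in LG samples 1, 3 and 4 and 130309, 98685 and 104359 in W2 samples 2, 3 and 6, the highest of any transcript in each. The luminal keratins KRT8 and KRT18 and the basal keratin KRT5 were detected in all 6 samples. Genes of skin keratinocytes were summed as a check on the dissection and gave 3.78, 8.66 and 60 units in LG and 7.44, 6.05 and 417 in W2. Most of the signal in W2 sample 6 came from KRT1 (207 units) and KRT10 (165). LG sample 4 and W2 sample 6 thus held more of this RNA than the other samples of their stage. The 3 muscle genes found in the table summed to 2.6 to 4.5 units over the 6 samples, and the red cell genes to 166, 173 and 93.4 in LG and 84.8, 233 and 231 in W2, with the stages overlapping. The medians of these lists were 0.60 for keratinocyte, -0.19 for muscle and 0.16 for red cell genes, and none of their genes was called.

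Among the milk protein genes, CSN1S1 fell from LG to W2, most others lay lower in W2 without passing, and PAEP, the most abundant, overlapped between the stages. CSN1S1, the gene of alpha-S1-casein (chromosome 8, 66888231 to 66908306, build Sscrofa11.1), stood at 7569.7, 15187 and 17153 units in LG and at 2626, 2722 and 2548 in W2. The W2 samples were all below the LG samples and lay close together. As a gene sum CSN1S1 fell 5.05-fold in the means (log2 fold change -2.25, standard error 0.32, limma adjusted p = 0.043), and its only transcript, NM_001004029.2, also passed among transcripts (adjusted p = 0.031). The call is narrow. It was lost when W2 and LG were fitted alone (limma adjusted p = 0.26) and when any of the 6 samples but LG sample 1 was left out, at 0.0995 to 0.13, while the log2 fold change stayed between -2.62 and -2.03.

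The other caseins lie beside CSN1S1 on chromosome 8 and encode the remaining micelle proteins. CSN2, beta-casein, had 21151, 31971 and 12576 units in LG and 3799, 1405 and 2901 in W2 (log2 fold change -3.03, standard error 0.62, limma adjusted p = 0.28). CSN3, the kappa-casein that coats the micelle, had 7072, 9712 and 4041 in LG and 1642, 1640.0 and 2515 in W2 (log2 fold change -1.79, standard error 0.44, limma adjusted p = 0.52). For both genes the highest W2 sample was below the lowest LG sample, but neither passed. CSN1S2, alpha-S2-casein, ran from 95.1 to 3531 units in LG and from 9.95 to 39.3 in W2 (log2 fold change -5.52, standard error 1.49, limma adjusted p = 0.56), a spread of over an order of magnitude inside LG.

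The whey proteins were uneven. WAP, the whey acidic protein, had 123, 65 and 6.93 units in LG and 3.99, 1.14 and 3.46 in W2 (log2 fold change -3.67, standard error 1.33, limma adjusted p = 0.59). LALBA, alpha-lactalbumin, which turns galactosyltransferase into lactose synthase, had 217, 272 and 14.6 in LG and 29.5, 2.31 and 13.7 in W2 (log2 fold change -3.18, standard error 1.52, limma adjusted p = 0.67), and its stages overlapped since LG sample 4 lay inside the W2 range. LG sample 4 was the lowest LG sample for CSN2, CSN3, CSN1S2, WAP, LALBA and PAEP and the highest for CSN1S1. PAEP overlapped between the stages (log2 fold change -0.31, standard error 0.14, limma adjusted p = 0.67). In all, 5 of the 7 genes had every W2 sample below every LG sample, against 2.35% of reference genes, and none had it above. The median log2 fold change of the 7 was -3.03 (-3.26 after median ratio scaling) against 0.23 for all reference genes. One of the 7, CSN1S1, was called.

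Summed without PAEP, the 6 genes held 39664, 59296 and 33885 units in LG and 8140.2, 5781 and 7998 in W2. This was 4.44% ± 1.33 (SD, n = 3) of all units in LG and 0.732% ± 0.133 in W2, and the stages did not overlap. The exact two-sided permutation p was 0.1, the smallest that 3 samples against 3 allow. With PAEP, the 7 genes held 179900.0, 204210.5 and 159075 units in LG and 138449, 104466 and 112357 in W2, again without overlap (exact permutation p = 0.1). At mid gestation (day 70, MG) the same 6 genes summed to 11906 to 29461 units, so W2 was also below every MG sample.

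**Figure D1:**
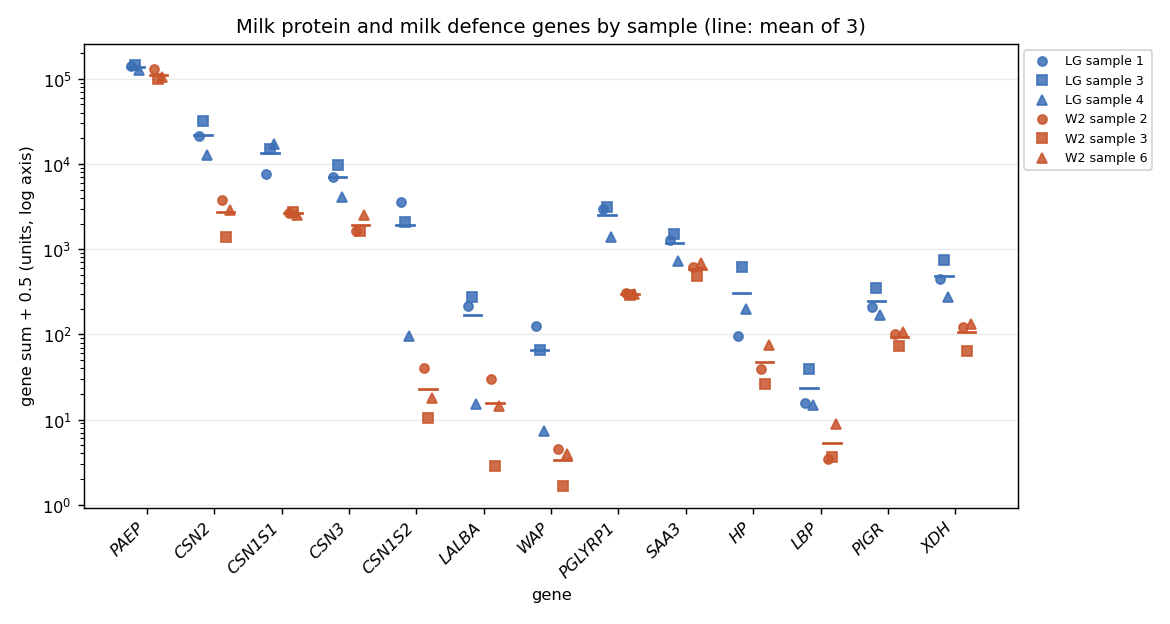
Gene sums plus 0.5 in units on a log axis for 13 genes of milk proteins, milk defence and milk fat secretion, with LG samples in blue and W2 samples in orange and a line at the mean of the 3 samples. The W2 samples lie below the LG samples for every gene shown except PAEP and LALBA, and CSN1S1 and PGLYRP1 have the tightest W2 values.

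Of the proteins that guard milk and the gland, none was called, and those furthest apart lay lower in W2. PGLYRP1, a peptidoglycan recognition protein that kills bacteria, had 2989, 3164 and 1375 units in LG and 304, 290.1 and 295 in W2, 8.46 times lower in the means (log2 fold change -2.99, standard error 0.50, limma adjusted p = 0.082). It stayed just short of the threshold. Its W2 values were also below every sample of MG, which ran from 541 to 1605 units. PIGR, the receptor that carries IgA into milk, had 207, 350.1 and 170.4 units in LG and 99.4, 73.1 and 106 in W2 (log2 fold change -1.33, standard error 0.39, limma adjusted p = 0.56). HP, haptoglobin, an acute-phase protein that binds free haemoglobin, had 96, 622 and 197 in LG and 39, 25.6 and 75.1 in W2 (log2 fold change -2.42, standard error 0.75, limma adjusted p = 0.56).

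The acute-phase gene SAA3 stood at 1292, 1508 and 718 units in LG and 613, 483 and 678 in W2 (log2 fold change -0.93, standard error 0.35, limma adjusted p = 0.6), and LBP, which presents bacterial lipopolysaccharide to CD14, at 15.2, 39.1 and 14.3 in LG and 2.94, 3.12 and 8.37 in W2 (log2 fold change -2.13, standard error 0.82, limma adjusted p = 0.61). MUC15, a mucin of the milk fat globule membrane, was the last of the 6 genes with all W2 samples below LG, of the 17 in the table. The background share for this was 2.35% of reference genes. The list also held 4 genes with all W2 samples above LG, close to the background share of 23.9%. Of these, LYZ, lysozyme, had 23.6, 20.9 and 24 units in LG and 64.8, 41.3 and 29.4 in W2, and CLU, the chaperone clusterin that is abundant in involuting glands, 156, 232 and 245 in LG and 337, 385 and 535 in W2 (log2 fold change 0.99, standard error 1.02, limma adjusted p = 0.81). LCN2 and CHI3L1 made up the rest. None of the 17 was called, and 5 had an unadjusted p below 0.05, all of them lower in W2. LTF, lactoferrin, overlapped between the stages (log2 fold change -0.34, standard error 0.39, limma adjusted p = 0.83). LBP, LYZ, CLU and LTF were named after their values were seen.

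Of 23 genes of milk fat synthesis and secretion, none was called and 3 had all W2 samples below LG, against 2.35% of reference genes. XDH, xanthine dehydrogenase, and BTN1A1, butyrophilin, together form the coat of the secreted fat globule. XDH had 451, 743 and 270.4 units in LG and 122, 62.7 and 131 in W2 (log2 fold change -2.16, standard error 0.51, limma adjusted p = 0.51), and BTN1A1 2.82, 16.8 and 3.38 in LG and 0.213, 0 and 2.08 in W2 (log2 fold change -2.64, standard error 1.01, limma adjusted p = 0.61). The fatty acid receptor CD36 had 25.7, 47 and 23.4 in LG and 17.3, 21.8 and 14.2 in W2 (log2 fold change -0.78, standard error 0.44, limma adjusted p = 0.7). The median log2 fold change of the whole list was -0.07 (-0.29 after median ratio scaling), and its sum overlapped, with 8394, 7628 and 6486 units in LG and 6969, 5671 and 6984 in W2 (exact permutation p = 0.3).

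Suppliers of lactose, ions and amino acids were mixed. B4GALT1, the galactosyltransferase of lactose synthase, had 292, 342 and 284 units in LG and 236, 213 and 259.9 in W2 (log2 fold change -0.37, standard error 0.21, limma adjusted p = 0.7), while HK1, which phosphorylates glucose, had 26.6, 21.8 and 29.6 in LG and 33.1, 40 and 36.9 in W2 (log2 fold change 0.49, standard error 0.22, limma adjusted p = 0.66). SLC34A2, the phosphate transporter of the alveolar surface, had 215, 228 and 198 in LG and 136, 136 and 124 in W2, with little spread in either stage (log2 fold change -0.69, standard error 0.16, limma adjusted p = 0.51). SLC7A8, an exchanger of large neutral amino acids, had 33.5, 29.1 and 23.3 in LG and 15.9, 13.5 and 15.3 in W2 (log2 fold change -0.90, standard error 0.25, limma adjusted p = 0.56). These genes did not overlap between stages and did not pass. The glutamine transporter SLC1A5 lay the other way, at 20.9, 20.7 and 21.8 in LG and 29.8, 38.1 and 46.3 in W2 (log2 fold change 0.81, standard error 0.22, limma adjusted p = 0.56), as did the arginine transporter SLC7A1 (log2 fold change 0.52, standard error 0.23, limma adjusted p = 0.65).

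STIM2, a calcium sensor of the endoplasmic reticulum, had 0.00771, 0.571 and 0.067 units in LG and 1.85, 4.47 and 4.11 in W2 (log2 fold change 2.48, standard error 1.17, limma adjusted p = 0.67), and the calcium pump ATP2A2 overlapped (log2 fold change 0.49, standard error 0.17, limma adjusted p = 0.56). Across the lists, 3 of 11 lactose and sugar genes, 3 of 14 ion transporters and 4 of 13 amino acid transporters had all W2 samples above LG. These shares were close to the background of 23.9% of reference genes. In the same lists, 1, 3 and 2 genes had all W2 samples below, against 2.35% of reference genes. The medians were 0.26, 0.35 and -0.08. No gene of the 3 lists was called.

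Interferon-stimulated genes were lower in W2 than in LG as a group. These genes respond to type I and type III interferon and encode proteins that sense viral RNA, block its translation or limit its release. Of the 24 genes of the list found in the table, 15 (62.5%) had every W2 sample below every LG sample, against 2.35% of reference genes, and none had it above. This list too was chosen with earlier results of these data known, so the count only describes it. The median log2 fold change was -0.81, -1.0 after median ratio scaling and -0.89 to -0.73 when 1 sample was left out. None was called, the lowest limma adjusted p being 0.38, but 8 had an unadjusted p below 0.05, all lower in W2.

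IFI6, an interferon-induced protein of the endoplasmic reticulum that hinders the replication of flaviviruses, led the list. It had 708, 315 and 704 units in LG and 124, 45.3 and 89.3 in W2, 6.69 times lower in the means (log2 fold change -2.76, standard error 0.59, limma adjusted p = 0.38). Its LG values were also above every sample of MG (53.2 to 128 units), of early lactation on day 2 after birth (EL, 54.4 to 179) and of peak lactation on day 10 (PL, 67.7 to 256). IFIT1, which binds RNA that lacks the host cap mark, had 11.2, 14 and 19 units in LG and 6.47, 7.46 and 5.47 in W2 (log2 fold change -1.11, standard error 0.33, limma adjusted p = 0.56). RSAD2, viperin, which makes a nucleotide that ends viral RNA chains, had 6.29, 6.98 and 8.09 in LG and 2.3, 1.8 and 2.49 in W2 (log2 fold change -1.50, standard error 0.53, limma adjusted p = 0.57). For both genes the W2 samples all lay below the LG samples.

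OAS1 and MX1 were named after their values were seen. OAS1, which makes the activator of RNase L, had 16.2, 10.2 and 21.2 units in LG and 7.9, 2.38 and 5.58 in W2 (log2 fold change -1.58, standard error 0.56, limma adjusted p = 0.57), and the dynamin-like MX1 31.8, 28.3 and 21.1 in LG and 13.8, 5.55 and 12.5 in W2 (log2 fold change -1.39, standard error 1.09, limma adjusted p = 0.76). For both genes the highest W2 sample was below the lowest LG sample. The W2 samples were likewise all lower for ISG15, IFIT3, DDX58, DDX60, IRF7, IRF9, USP18, HERC5 and CXCL10. The genes that did not separate were IFI44L, OAS2, BST2, IFIH1, STAT2, GBP1, IFI44, GBP2 and IFIT2.

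Summed, the list held 1301, 902 and 1286 units in LG and 462, 379 and 501 in W2, without overlap (exact permutation p = 0.1, the smallest possible). IFI6 made up a large part of this, and without it the sums were 593, 586 and 582 in LG and 338, 334 and 411 in W2, again apart. In MG the whole list summed to 434 to 543 units and in EL to 392 to 601, so all LG samples were above both. PL ran from 259 to 997 and overlapped with LG. The summed macrophage markers (445, 351 and 555 units in LG and 431, 479.6 and 538 in W2) and T and NK cell markers (44.7, 53.4 and 42.9 in LG and 49.4, 46 and 53.7 in W2) overlapped between the stages. The part of immune cell numbers in the interferon genes was not tested.

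**Figure D2:**
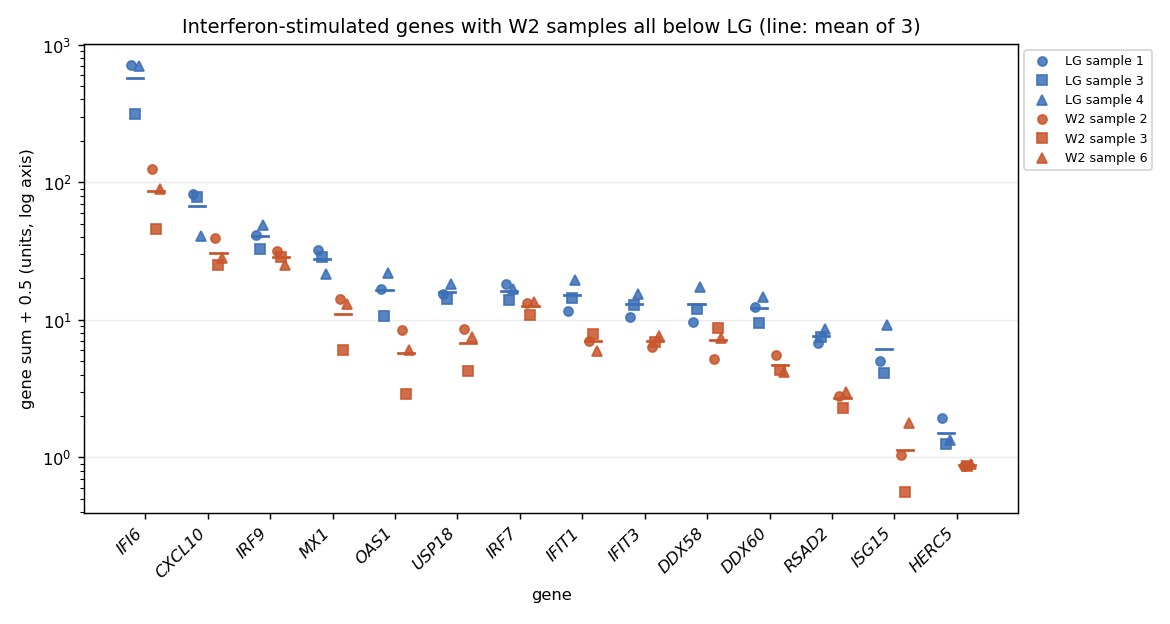
Gene sums plus 0.5 in units on a log axis for 14 interferon-stimulated genes whose W2 samples (orange) all lie below the LG samples (blue), with a line at the mean of the 3 samples. The log2 fold change is largest for IFI6 (-2.76) and ISG15 (-2.50) and smallest for IRF7 (-0.37).

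NCBP2 was the other reference gene that was called. It encodes the small subunit of the nuclear cap-binding complex, which binds the 5′ cap of new transcripts in every cell. Its only transcript in the table, XM_003358764.5, had 20.9, 22 and 24.6 units in LG and was listed at 0 in all 3 W2 samples (limma adjusted p = 0.043 for the gene sum and 0.046 for the transcript). With any 1 of the 6 samples left out, the gene sum no longer passed (adjusted p 0.0995 to 0.145), while it passed with W2 and LG fitted alone (limma adjusted p = 0.0084). MG had 15.3 to 21.9 units, EL 0 to 3.57 and PL 0 to 3.4. The study had chosen this gene for RT-qPCR across all stages. It reports high concordance of RT-qPCR trends and RNA-seq over the transcripts it measured, and its text gives no value for NCBP2 alone.

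A neighbouring gene stood the other way. PIGZ encodes a mannosyltransferase of the GPI anchor pathway and overlaps NCBP2 on chromosome 13: NCBP2 spans 133177209 to 133192935 and PIGZ 133157168 to 133191786 (Sscrofa11.1), so 133177209 to 133191786 belongs to both. PIGZ had 1.72, 0.713 and 1.78 units in LG and 17.7, 25.4 and 24.2 in W2 (log2 fold change 3.63, standard error 0.57, limma adjusted p = 0.064). Summed, the pair had 22.6, 22.8 and 26.4 units in LG and 17.6, 25.4 and 24.2 in W2, and the stages overlapped (exact permutation p = 0.8). In EL, where NCBP2 was low, PIGZ ran from 14.9 to 17.5 units, and in MG, where NCBP2 was high, from 0.303 to 5.07. How reads in the shared stretch were divided between the genes is not given, so the values of both are uncertain. These values do not show that NCBP2 RNA was absent in W2. PIGZ was named after its values were seen.

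**Figure D3:**
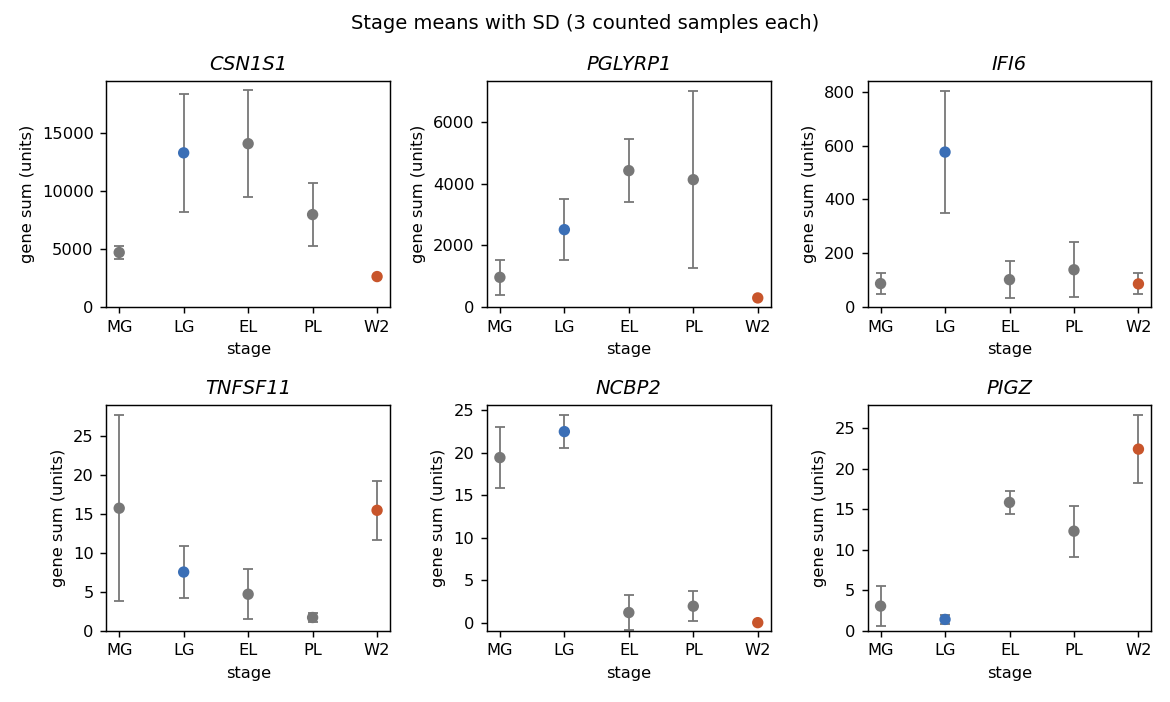
Mean gene sum in units with SD (n = 3 counted samples) in the 5 stages for 6 genes, LG in blue, W2 in orange and the other stages in grey. CSN1S1, PGLYRP1 and IFI6 are lower in W2 than in LG, and NCBP2 and PIGZ run opposite to each other over the stages.

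Most called transcripts were single isoforms whose gene did not pass. Of the 20, 11 were reference transcripts and 9 were assembled, and 11 were listed at 0 in all 3 samples of a stage. ANPEP, aminopeptidase N, a protease of the apical membrane of epithelium, is the clearest case. Its isoform XM_005653523.3 had 3.26, 3.64 and 2.55 units in LG and 0, 0 and 0.00539 in W2 (log2 fold change -2.85, standard error 0.33, limma adjusted p = 0.0097). The share of this isoform in the gene was 63.8, 91.5 and 60.7% in LG and 0, 0 and 0.109% in W2. The sum over the gene's 4 transcripts was 4.43 ± 0.595 units (SD, n = 3) in LG and 4.45 ± 0.51 in W2, a difference smaller than the SD of either stage.

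SP1, a zinc finger factor that binds GC boxes in many promoters, showed the reverse. XM_005652569.3 had 0.12, 0.19 and 0.0388 units in LG and 6.61, 4.07 and 3.78 in W2 (log2 fold change 3.08, standard error 0.33, limma adjusted p = 0.0056), or 0.674, 1.07 and 0.198% and 34, 22 and 17.8% of the gene, whose sum was 18.4 ± 1.05 and 19.7 ± 1.37 (SD, n = 3). GMEB1, which binds the glucocorticoid modulatory element, was listed at 0 for XM_021095687.1 in all LG samples and at 4.74, 3.87 and 3.23 units in W2 (limma adjusted p = 0.0042), 50.3, 53.2 and 35.5% of the gene. PPIG, a prolyl isomerase of nuclear speckles, had 0, 0.034 and 0 units of XM_005671915.3 in LG and 5.84, 8.76 and 3.8 in W2 (log2 fold change 3.63, standard error 0.37, limma adjusted p = 0.0042), and MG held 5.23 to 9.4 units of it. In each case the gene sum was not called, with limma adjusted p of 0.93 for SP1, 0.7 for GMEB1 and 0.64 for PPIG.

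XM_021075338.1 of ABI2, a part of the WAVE complex that drives actin branching, and XM_021089300.1 of YTHDF3, a reader of N6-methyladenosine, were listed at 0 in LG. In W2 they had 2.37, 1.38 and 3.98 and 2.98, 14.9 and 2.53 units (limma adjusted p = 0.023 and 0.048). Lower in W2 were XM_021100510.1 of GUCY1A3, a subunit of the nitric oxide receptor guanylate cyclase, at 6.52, 3.31 and 3.63 units in LG and 0 in W2 (adjusted p = 0.0042), and XM_021067386.1 of LOC110256043, at 9.9, 4.92 and 12.2 in LG and 0, 0 and 0.0337 in W2 (log2 fold change -4.13, standard error 0.51, limma adjusted p = 0.015). GUCY1A3 summed to 35.4 ± 1.9 units (SD, n = 3) in LG and 18.7 ± 5.18 in W2 (log2 fold change -0.94, standard error 0.29, limma adjusted p = 0.56). The shares of the called isoform did not overlap between stages for ANPEP, SP1, GMEB1, PPIG, ABI2, YTHDF3, GUCY1A3 or LOC110256043. The exact permutation p of a share was 0.1 for each, the smallest possible, and these isoforms were picked by the same values, so that is a description. Isoform values depend on how the authors' quantification divided reads among overlapping transcripts.

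**Figure D4:**
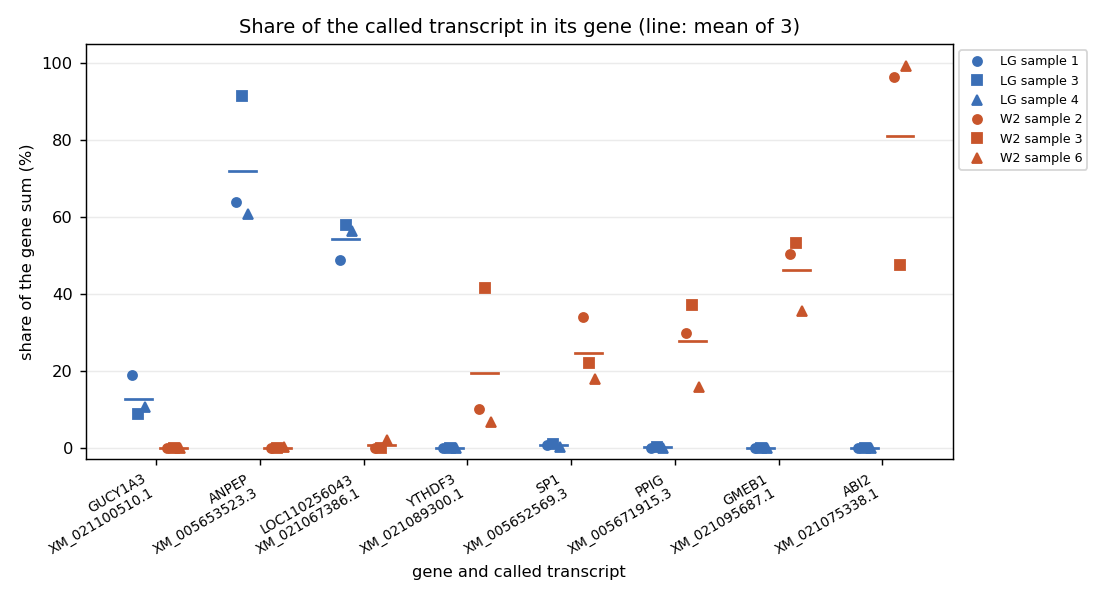
Share of the called reference transcript in the sum of its gene, in percent, for the 8 genes with more than 1 transcript other than AGO1, by sample (LG blue, W2 orange, line at the mean of the 3 samples). In every gene shown the shares of the stages stand apart, and 1 of the stages lies at or near 0%.

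AGO1, an Argonaute protein of the microRNA pathway, differed as a whole gene. XM_005665209.3 fell from 8.49, 6.93 and 7 units in LG to 0.855, 0 and 0 in W2 (log2 fold change -3.51, standard error 0.52, limma adjusted p = 0.047), and the gene sum, with 8.53, 6.94 and 7.05 in LG and 0.867, 0 and 0.13 in W2, missed the threshold (log2 fold change -3.40, standard error 0.55, limma adjusted p = 0.077). MG had 0 to 2.49 units, EL 0 to 0.249 and PL was listed at 0, so LG stood above all other stages. A pair of further genes that were at or near 0 in W2 is given after their values were seen: TTC3, a ubiquitin ligase, with 10.9, 9.23 and 10.9 in LG and 0, 0 and 0.00582 units in W2 (adjusted p = 0.077), and ELMOD2, which acts on ARF GTPases, with 5.95, 7.24 and 6.89 and 0 in all W2 samples (adjusted p = 0.13). MCM5, which dividing cells need, was listed at 0 in all 6 samples. The table holds no reads, and whether a listed 0 is absence or a failed estimate was not tested.

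The assembled loci carried 6 of the 8 called gene sums. Their names begin with MSTRG, and the table gives them no position and no gene. MSTRG.17181 was listed at 0 in all LG samples and had 8.47, 7.68 and 6.5 units in W2 (limma adjusted p = 7.9e-06), the lowest adjusted p of all gene sums. MSTRG.10966 had 2.35, 0 and 0 units in LG and 19.1, 18 and 21.1 in W2 (log2 fold change 4.47, standard error 0.52, limma adjusted p = 0.0086), and MSTRG.10981 0.633, 0.0287 and 0.0128 units in LG and 6.44, 9.3 and 7.73 in W2 (log2 fold change 3.61, standard error 0.42, limma adjusted p = 0.0086). Lower in W2, and listed at 0 in all its samples, were MSTRG.8169 (2.17, 3.91 and 3.2 units in LG), MSTRG.2137 (1.55, 2.62 and 9.13) and MSTRG.7176 (0.973, 2.23 and 3.26). MSTRG.17181, MSTRG.10966 and MSTRG.10981 rose and the other 3 fell. All but MSTRG.2137 and MSTRG.7176 stayed called whichever of the 6 samples was left out. With W2 and LG fitted alone, only MSTRG.17181 of these loci stayed called (limma adjusted p = 0.0084). The others then had limma adjusted p from 0.059 (MSTRG.8169) to 0.27 (MSTRG.2137). MSTRG.10966, MSTRG.2137 and MSTRG.7176 were listed at 0 in all counted samples of MG, EL and PL, which enter the pooled spread.

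One assembled transcript was abundant. MSTRG.10841.9 fell from 3231, 3196 and 2607 units in LG to 645, 624 and 836 in W2 (log2 fold change -2.11, standard error 0.30, limma adjusted p = 0.042), while its locus of 9 transcripts overlapped, and its share of that locus was 15.0% ± 4.97 in LG and 4.6% ± 0.358 in W2 (SD, n = 3). In MG it had 860.4 to 1204 units and in EL 3359.8 to 6023. The transcripts MSTRG.4403.17, MSTRG.13422.5, MSTRG.354.3 and MSTRG.16138.13 rose and MSTRG.3335.1 and MSTRG.5646.3 fell, with stage means of at most 9.96 units. The calls of MSTRG.10841.9, MSTRG.16138.13, AGO1 and YTHDF3 were lost without at least 1 of the 6 samples. MSTRG.10966.2 and MSTRG.8169.1 are the single transcripts of called loci above.

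The genes that lead involution in rodents did not separate the stages. LIF was low throughout, at 0.0528, 0.0319 and 0.139 units in LG and 0.073, 0.17 and 0.147 in W2. STAT3 had 13.7, 5.06 and 6.06 in LG and 7.25, 4.62 and 10.1 in W2 (log2 fold change -0.10, standard error 0.49, limma adjusted p = 0.99), CEBPD 21.9, 21.8 and 24.6 in LG and 20.5, 27.3 and 6.89 in W2 (log2 fold change -0.51, standard error 0.58, limma adjusted p = 0.82) and SOCS3, the feedback inhibitor of STAT3, 2.81, 3.39 and 2.93 in LG and 3.08, 4.76 and 5.37 in W2 (log2 fold change 0.44, standard error 0.43, limma adjusted p = 0.79). IGFBP5, which binds IGF1 and removes its survival signal, had 38.2, 17.7 and 37.2 in LG and 28.8, 45.6 and 30.2 in W2 (log2 fold change 0.22, standard error 0.63, limma adjusted p = 0.96). The stages overlapped for all 5 genes, and the signs of STAT3, CEBPD and IGFBP5 turned when a sample was left out. A p that misses the threshold does not show that the stages were alike.

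Of the 15 genes of this list in the table, 2 had all W2 samples above LG, a share below the background of 23.9%: IRF1, and ATF3, a stress-induced factor, with 10.4, 9.27 and 9.43 units in LG and 18, 10.6 and 10.6 in W2 (log2 fold change 0.37, standard error 0.24, limma adjusted p = 0.7). MYC overlapped (log2 fold change 0.43, standard error 0.39, limma adjusted p = 0.78). IL6ST, the shared receptor of this cytokine family, was at 1.48 units in W2 sample 6 and at 21.6 or more in the other samples. None of the list was called and none had an unadjusted p below 0.05.

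On the side of prolactin, PRLR was not found in the table. STAT5A had 70.7, 9.84 and 8.74 units in LG and 8.56, 13.4 and 13.8 in W2, with LG sample 1 far above the rest (log2 fold change -0.64, standard error 0.77, limma adjusted p = 0.84), and STAT5B overlapped (log2 fold change 0.26, standard error 0.37, limma adjusted p = 0.87). TNFSF11, RANKL, which relays progesterone to the alveolar progenitors, had 5.71, 5.54 and 11.4 in LG and 14.4, 19.7 and 12.4 in W2, all W2 samples above LG but not called (log2 fold change 1.04, standard error 0.53, limma adjusted p = 0.68). MG had 8.06 to 29.6 units, EL 1.85 to 8.2 and PL 1.12 to 2.34. The progesterone receptor PGR, which induces it, was below 1 unit in all 6 samples and also higher in every W2 sample (log2 fold change 0.45, standard error 0.26, limma adjusted p = 0.7). FOXA1, which opens chromatin for steroid receptors, overlapped (log2 fold change 0.62, standard error 0.37, limma adjusted p = 0.7). PGR was named after its values were seen. No gene of the prolactin list (median 0.08, 10 genes) or of the steroid and paracrine list (median 0.38, 12 genes) was called.

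Several structural genes of the epithelium had all W2 samples above LG, beside the low milk genes. KRT18, a keratin of luminal cells, had 50.2, 56.6 and 29.8 units in LG and 90, 80.8 and 112 in W2 (log2 fold change 1.08, standard error 0.42, limma adjusted p = 0.62), and its partner KRT8 157, 197 and 208 in LG and 265, 281 and 349.9 in W2 (log2 fold change 0.67, standard error 0.45, limma adjusted p = 0.71). OCLN, occludin of the tight junction, had 13.4, 29.1 and 23.2 in LG and 36.1, 39.6 and 35.8 in W2 (log2 fold change 0.82, standard error 0.29, limma adjusted p = 0.57), and CLDN7 and MARVELD3 were also above LG in every W2 sample (log2 fold change 0.50, standard error 0.25, limma adjusted p = 0.68 for CLDN7 and 0.56, 0.30 and 0.69 for MARVELD3). Of 16 junction genes, 8 had all W2 samples above LG, and of 15 luminal markers 5, against 23.9% of reference genes. None was called.

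The medians of the junction and luminal lists were 0.32 and 0.16, and after median ratio scaling 0.09 and -0.07, so the luminal list changed sign. The luminal markers summed to 1635, 1911 and 1677 units in LG and 1694, 2136 and 2488 in W2 (exact permutation p = 0.2). Among basal markers, KRT5 had 46.1, 78 and 109 units in LG and 99, 124 and 175 in W2 (log2 fold change 0.81, standard error 0.54, limma adjusted p = 0.71). KRT5 is also a skin keratin, and its highest values were in LG sample 4 and W2 sample 6, which held the most keratinocyte RNA of their stage. The part of skin in it was not tested. VIM, vimentin, overlapped (log2 fold change 0.61, standard error 0.26, limma adjusted p = 0.65), and MYLK, the kinase of myoepithelial contraction, was at 1.37 units in W2 sample 6 and at 86.5 in W2 sample 3 (log2 fold change -2.28, standard error 1.54, limma adjusted p = 0.72). Of 14 basal markers (median 0.26), 3 were above in all W2 samples, against 23.9% of reference genes. The sums of the basal markers overlapped.

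Genes of the matrix leaned towards W2, as did most reference genes. The basement membrane collagens COL4A1 and COL4A2 are transcribed from a shared promoter. COL4A2 had 221, 189.7 and 135 units in LG and 344, 272 and 289.7 in W2 (log2 fold change 0.75, standard error 0.22, limma adjusted p = 0.56), and COL4A1 281, 285 and 339 in LG and 422, 361 and 397 in W2 (log2 fold change 0.39, standard error 0.12, limma adjusted p = 0.56). COL18A1, the source of endostatin, had 63.4, 63.1 and 82.9 in LG and 96.9, 91.5 and 107 in W2 (log2 fold change 0.50, standard error 0.17, limma adjusted p = 0.56). The median of 25 matrix genes was 0.47 (0.26 after median ratio scaling), against 0.23 (0.03) for all reference genes. Of the 25, 21 had a log2 fold change above 0, against 75.4% of reference genes. All W2 samples lay above LG in 6 of the 25, a share close to the background. Fibroblast markers had a median of 0.51 but no gene without overlap, and LG sample 4 reached the W2 range in their sums, which were 595, 501 and 955 units in LG and 709, 1189.9 and 1015 in W2 (exact permutation p = 0.2). COL1A1, LUM and PDGFRB had log2 fold changes of 0.68, 0.63 and 0.38, none called.

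Among 19 matrix proteases and inhibitors (median 0.43), TIMP4, an inhibitor of matrix metalloproteinases that fat tissue and vessels express, had 9.81, 12.4 and 7.27 units in LG and 4.89, 4.12 and 2.98 in W2 (log2 fold change -1.19, standard error 0.24, limma adjusted p = 0.23). MMP11, stromelysin 3, lay the other way, with 4.86, 6.3 and 2.76 in LG and 10.5, 10.4 and 7.19 in W2 (log2 fold change 0.99, standard error 0.40, limma adjusted p = 0.63), and the plasminogen activator PLAU overlapped (log2 fold change 0.49, standard error 0.26, limma adjusted p = 0.69). None was called.

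Cell cycle genes had a median log2 fold change of 0.47 (0.25 after median ratio scaling) over 35 genes. Of the 35, 30 were above 0, against 75.4% of reference genes. All W2 samples lay above LG in 6 of the 35, a share under the background of 23.9%, and below in 1. CDC20, an activator of the anaphase-promoting complex, had 18.6, 14.3 and 15.9 units in LG and 22.2, 23.9 and 32.4 in W2 (log2 fold change 0.66, standard error 0.25, limma adjusted p = 0.61), and CCNB1, cyclin B1, 13.1, 12.5 and 13.6 in LG and 17.8, 20.3 and 32.3 in W2 (log2 fold change 0.78, standard error 0.32, limma adjusted p = 0.64). PCNA, the sliding clamp of replication, overlapped (log2 fold change 0.58, standard error 0.23, limma adjusted p = 0.62). MKI67, the gene of the proliferation antigen Ki-67, was below 2 units in all 6 samples and overlapped (log2 fold change 0.14, standard error 0.49, limma adjusted p = 0.97), and its sign turned under quantile normalization and without W2 sample 2. The list summed to 466, 457 and 538 units in LG and 523, 738 and 823 in W2 (exact permutation p = 0.2), with W2 sample 2 inside the LG range. None was called.

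Heat shock and folding genes stood near the rest of the table, with single genes above LG in all W2 samples. HSPH1, a co-chaperone of HSP70, had 13.6, 17.7 and 14.8 units in LG and 19.8, 33 and 42 in W2 (log2 fold change 0.96, standard error 0.24, limma adjusted p = 0.53), and the inducible HSP70 gene HSP70.2 30.1, 31.4 and 28.7 in LG and 36.8, 50.8 and 64.2 in W2 (log2 fold change 0.71, standard error 0.24, limma adjusted p = 0.56). TXN, thioredoxin, was also above in all W2 samples (log2 fold change 0.38, standard error 0.20, limma adjusted p = 0.68). In the endoplasmic reticulum, the chaperone HSPA5 had 126, 145 and 146 in LG and 155, 197 and 246 in W2 (log2 fold change 0.50, standard error 0.20, limma adjusted p = 0.63) and MANF 42.3, 45.8 and 50.6 in LG and 50.9, 62.3 and 79.7 in W2 (log2 fold change 0.45, standard error 0.20, limma adjusted p = 0.65), while SSR3, of the translocon, was lower in W2 samples 2 and 3 only (log2 fold change -0.57, standard error 0.19, limma adjusted p = 0.56). All 25 antioxidant and stress genes had a log2 fold change above 0, against 75.4% of reference genes. Of the 25, 7 had all W2 samples above LG, against 23.9% of reference genes. Their median was 0.31, and after median ratio scaling the median was 0.08. Of the 27 secretion genes, 7 were above and 1 below in all W2 samples (median 0.15, -0.08 after scaling). None of either list was called.

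Cell death and lysosome genes stood near the rest of the table, with medians of 0.19 over 17 genes and 0.22 over 26. BCL2L1, which protects mitochondria from apoptosis, had 30, 30.9 and 28.7 units in LG and 34.1, 32.5 and 37.3 in W2 (log2 fold change 0.21, standard error 0.17, limma adjusted p = 0.76), and its sign turned after scaling (-0.02). BCL2 (log2 fold change 0.59, standard error 0.37, limma adjusted p = 0.7) and CASP1 (log2 fold change -1.31, standard error 0.68, limma adjusted p = 0.68) overlapped. ATG5, of autophagosome formation, was above in all W2 samples (log2 fold change 0.47, standard error 0.19, limma adjusted p = 0.64), the protease CTSZ overlapped (log2 fold change -0.61, standard error 0.20, limma adjusted p = 0.56), and LAMP2, of the lysosome membrane, did too (log2 fold change -1.34, standard error 0.48, limma adjusted p = 0.59).

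Antigen presentation did not follow the interferon genes. The MHC class II genes SLA-DQA1 and SLA-DQB1 had 204, 179 and 197 and 95.9, 75.2 and 97.1 units in LG and 302, 240.3 and 254 and 135, 116 and 108 in W2, all W2 samples above LG (log2 fold change 0.45, standard error 0.18, limma adjusted p = 0.63 for the former and 0.42, 0.21 and 0.68 for the latter). SLA-DRA, named after its values were seen, and SLA-DMA and TAPBP were above as well, 5 of 22 genes in all, close to the background. PSMB9, a subunit of the immunoproteasome that interferon induces, had 10.4, 4.48 and 6.28 in LG and 3.81, 4.52 and 3.8 in W2 (log2 fold change -0.66, standard error 0.36, limma adjusted p = 0.7). The MHC genes have similar copies that can share reads, so their values are uncertain.

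IL10, a cytokine that dampens inflammation, had 1.19, 1.57 and 1.68 units in LG and 2.09, 2.84 and 2.71 in W2 (log2 fold change 0.62, standard error 0.24, limma adjusted p = 0.62), and CCL2 (log2 fold change 0.68, standard error 0.55, limma adjusted p = 0.76) and TGFB1 (log2 fold change 0.34, standard error 0.27, limma adjusted p = 0.76) overlapped. Of 22 chemokines and cytokines (median 0.34), 3 were above in all W2 samples, against 23.9% of reference genes. Macrophage markers had a median of 0.27 and neutrophil markers of 0.29, near that of all genes, and LGALS3, GPNMB, AIF1, FCGR3A and NCF1 all overlapped with adjusted p of 0.7 to 0.85. The granule gene S100A8 was listed at 0 in all 6 samples. Neutrophil sums were 61.8, 49.8 and 72.2 units in LG and 73, 79.4 and 75.8 in W2, without overlap (exact permutation p = 0.1). The log2 ratio of their means shrank from 0.31 to 0.09 after median ratio scaling. T and NK cell genes had a median of 0.06, and LCK, CD8A and NKG7 overlapped with adjusted p of 0.78 to 0.84.

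B and plasma cell markers were lower in W2 as a sum, with 1697, 1909 and 1695 units in LG and 1231, 1404 and 1257 in W2, without overlap (exact permutation p = 0.1). JCHAIN, which joins IgA dimers and made up much of the sum, overlapped at 969, 654 and 872 in LG and 494, 795 and 375 units in W2 (log2 fold change -0.64, standard error 0.47, limma adjusted p = 0.74), as did PRDM1 (log2 fold change -0.44, standard error 0.38, limma adjusted p = 0.77). IRF4, a factor of plasma cells, was below in all W2 samples (log2 fold change -0.57, standard error 0.39, limma adjusted p = 0.72). The median of the 11 genes was -0.35, and IRF4 was the only 1 with all W2 samples below LG. XBP1 of this list is also counted among the secretion genes, so the sum is not specific to B and plasma cells. No gene of the macrophage, neutrophil, T and NK or B and plasma lists was called.

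Adipocyte markers summed to 717, 805 and 748 units in LG and 585, 680.3 and 566 in W2, without overlap (exact permutation p = 0.1). FABP4, which carries fatty acids in adipocytes and small vessels, made up most of it, with 635, 728 and 674 in LG and 504, 613 and 497 in W2 (log2 fold change -0.34, standard error 0.20, limma adjusted p = 0.7). AQP7, the glycerol channel of adipocytes, had 2.52, 5.6 and 2.19 in LG and 1.32, 0.0502 and 0.545 in W2 (log2 fold change -1.86, standard error 0.65, limma adjusted p = 0.57), and LIPE, hormone-sensitive lipase, overlapped (log2 fold change 0.41, standard error 0.27, limma adjusted p = 0.71). The markers ADIPOQ and PLIN1 were not found in the table. Endothelial sums overlapped, at 268, 263 and 369.8 in LG and 287, 275 and 329 in W2. ESAM, an adhesion molecule of endothelial junctions, had 15.4, 16.2 and 17.3 in LG and 3.92, 10.1 and 12.8 in W2 (log2 fold change -0.98, standard error 0.38, limma adjusted p = 0.62), while ENG and TEK overlapped. The medians were -0.02 over 11 adipocyte and -0.09 over 13 endothelial genes. No gene of either list was called.

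The clock repressors CRY1 and CRY2 were the genes with the lowest p of 17 clock genes. CRY1 had 6.38, 4.96 and 7.36 units in LG and 11.6, 13.6 and 12.1 in W2 (log2 fold change 0.96, standard error 0.22, limma adjusted p = 0.51), and CRY2 4.61, 4.19 and 8.29 in LG and 10.4, 11.4 and 10.7 in W2 (log2 fold change 0.93, standard error 0.38, limma adjusted p = 0.64). CIART overlapped (log2 fold change -0.73, standard error 0.40, limma adjusted p = 0.7), and the list as a whole had a median of -0.01. In the IGF system (median 0.13, 11 genes), IGFBP3 was above in all W2 samples at 1.11, 0.722 and 1.05 in LG and 2.73, 2.72 and 1.53 units in W2 (log2 fold change 0.93, standard error 0.40, limma adjusted p = 0.65), and IGFBP6 and IGF2 overlapped (log2 fold change 0.75, standard error 0.42, limma adjusted p = 0.7 and -0.31, 0.42 and 0.86). Of the 32 genes that the study names as network hubs or measured by RT-qPCR, 6 were above and 4 below in all W2 samples. The background shares were 23.9% and 2.35% of reference genes, and the median of the 32 was 0.25. The study chose that list on these samples, so it is not independent evidence. NCBP2 was the only one called.

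**Figure D5:**
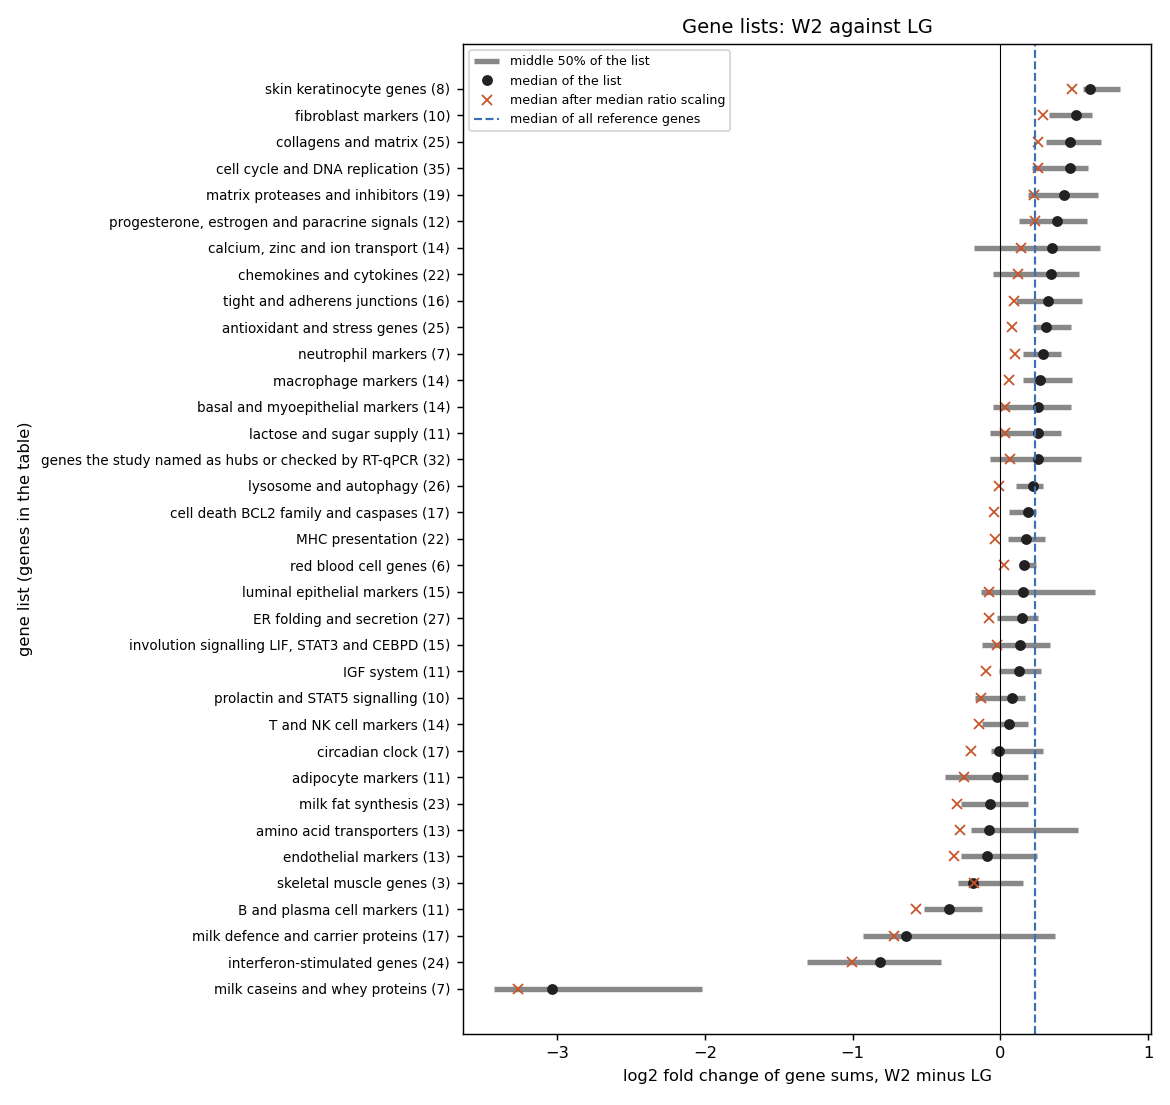
Median log2 fold change (W2 minus LG, gene sums) of the 35 gene lists as black points with the middle 50% of each list as a grey bar, the median after median ratio scaling as an orange cross and the median of all reference genes (0.23) as a dashed line. Milk proteins (-3.03), interferon-stimulated genes (-0.81) and milk defence proteins (-0.64) lie lowest, and most other lists lie near the dashed line.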

How the data were processed

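Total RNA of whole mammary tissue was sequenced on TruSeq libraries. According to the submitters' processing notes and the study's methods, reads were checked with FastQC, trimmed with Trimmomatic, aligned to Sscrofa11.1 with HISAT2 and assembled and quantified with StringTie. The authors deposited 1 table of 61773 transcripts, named FPKM, in which all samples have nearly the same total, so they were treated as TPM. Whether the deposited values precede the study's correction for unwanted variation between animals (RUVs) is not stated. The study lists read totals per library, but the table holds no read counts and none were used here, so no counting error is given.

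In each stage, 3 samples that differed from one another by under 5% were left out as near-copies. Values were tested as log2(value + 0.5) with limma 3.58.1 in R 4.3.3, with a trend in the variance, over the 15 counted samples of 5 stages, with Benjamini-Hochberg adjustment and no low-value filter. Gene sums were fitted the same way. Features were called at an adjusted p below 0.05 with a log2 fold change of 2 or more in size. Summed lists were compared with exact two-sided permutation tests in scipy 1.17.1. Tables were handled with pandas 2.3.3 and figures drawn with matplotlib 3.10.9.

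Lists (35, holding 606 symbols, 537 in the table), members and named genes were chosen with earlier results of these data known. Named were all called features, the 3 genes with the lowest unadjusted p in each list among those with a mean of at least 1 unit, and 14 genes of milk, involution and hormone response. Others were named after their values were seen. Some list members are counted but not reported singly here. Positions are those of RefSeq on Sscrofa11.1. The steps were tested on simulated data, with 100 changes of log2 size 3 and 100 of size 4 planted at W2. Of these, 30 and 48 were called among transcripts and 76 and 77 among gene sums. At each level, 4 unchanged features were also called. Changes of that size can thus be missed. Alternatives were other pseudocounts, a filter, other scalings, other sample sets, no variance trend, a replicate block and leaving samples out.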

Additional observations from a re-analysis of the deposited data

Results flagged for a closer look

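The near-copies hold values above 0 where the counted samples are listed at 0. Whether these are signal or noise was not tested. Among transcripts listed at 0 in all 3 counted samples of a stage, 50.24% of the values in the samples not counted were above 0 in LG and 49.8% in W2. The highest value there was 1.89 units in LG and 1.76 in W2. These values were flagged because they lie in samples outside the comparison, and they entered no call.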

How the results depend on the processing

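Read counts were not used here, so counting error is not covered, and 3 samples a stage cannot reach an exact permutation p below 0.1, so the sums rest on non-overlap alone. Of 2649 values of 148 results under the alternatives, 152 lost a call, 36 changed sign and 30 were classed as stronger. The stronger values include list sums whose exact permutation p went below 0.05. The other 2431 kept their direction and were classed as the same. These classes do not count every gene that passed under an alternative. With all 6 samples per stage, CSN2, PGLYRP1 and IFI6 had limma adjusted p of 1.0e-07, 1.3e-09 and 1.8e-07. Where a cause is not given, it was not tested.

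The number of calls was unstable. Against 20 transcripts and 8 gene sums, a mean of at least 1 unit left 4 and 3, W2 and LG fitted alone gave 2 and 12, all 6 samples per stage 2547 and 414, and the near-copies taken as 1 further sample 418 and 110. Pseudocounts of 0.1 and 1 gave 28 and 14 transcripts. Leaving out 1 sample gave 56 to 87 transcripts and 8 to 16 gene sums: 62, 56 and 78 transcripts without LG samples 1, 3 and 4, and 79, 68 and 87 without W2 samples 2, 3 and 6. An alternative chosen after seeing the data, without LG sample 4 and W2 sample 6, gave 150 and 22. CSN1S1 had a limma adjusted p of 0.0522 with the filter, 0.26 with W2 and LG alone and 0.0047 to 0.13 with 1 sample left out. NCBP2 had 0.0084 with W2 and LG alone and ranged from 0.0995 to 0.145 with 1 sample left out.

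Samples with the same number in different stages did not deviate together (19 pairs, correlations -0.067 to 0.088), so numbers do not pair the samples. A replicate block left 2 transcripts and 2 gene sums, and turned MYC to -0.21, KRT1 to -0.71 and LTF to 0.00037.

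With all 6 samples per stage, the permutation test of these sums passed, at log2 ratios of -0.61 for milk proteins (-2.60 without PAEP), -1.38 for interferon genes (-0.71 without IFI6), -0.20 for milk fat, -0.44 for B and plasma, -0.31 for adipocyte, 0.32 for neutrophil, 0.27 for luminal, 0.27 for basal, 0.51 for fibroblast, 0.51 for cell cycle and 0.28 for muscle genes. The near-copies add no independent sows to that test.

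Signs turned as follows. Under median ratio scaling and quantile normalization the macrophage sum went to -0.13 and -0.11, T and NK to -0.15 and -0.17, BCL2L1 to -0.018 and -0.017, NKG7 to -0.036 and -0.038, GYPC to -0.13 and -0.15 and IGFBP5 to -0.011 and -0.0061. MKI67 went to -0.019 under quantile normalization, -0.51 with all 6 samples and -0.18 with the near-copies as 1. Without LG sample 4 and W2 sample 6, T and NK went to -0.040, endothelial to 0.081, red cell to -0.094, IL6ST to 0.50, CD8A to -0.14, HBB to -0.53, DSG1 to -0.41, CEBPD to 0.11 and KRT1 to -0.86. With 1 sample left out, the sums ranged over -0.052 to 0.28 for macrophage markers, -0.10 to 0.16 for endothelial markers and -1.84 to 4.53 for skin keratinocyte genes, and the genes over -1.16 to 0.32 for STAT5A, -0.035 to 0.48 for STAT5B, -1.71 to 0.41 for IL6ST, -0.77 to 0.013 for PRDM1, -0.18 to 1.0 for HBB, -0.22 to 1.5 for DSG1, -1.0 to 2.06 for KRT10, -0.36 to 0.31 for STAT3, -0.90 to 0.056 for CEBPD, -0.14 to 0.40 for IGFBP5, -0.051 to 0.40 for MKI67 and -2.35 to 1.89 for KRT1.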

Other observations

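Genes of the nucleolus and of the cytosolic chaperonin were chosen after their values were seen, for lying higher in W2, so their counts only describe them and nothing is read from them against the 23.9% of all reference genes. Of 20 genes of ribosome assembly in the nucleolus, 15 had every W2 sample above every LG sample, and 19 had a log2 fold change above 0. Their median was 0.66, and 0.43 after median ratio scaling, against 0.23 and 0.03 for all reference genes. Of the 8 chaperonin subunits named, 7 were in the table and 6 of these had every W2 sample above LG, with a median of 0.46 (0.23 after scaling). No gene of either group was called, and the lowest limma adjusted p was 0.53 for the nucleolar genes and 0.56 for the chaperonin.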
